A study of Mus musculus with 2 samples.

Results

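The genes described here are the constant-region genes of the T cell receptor and the 3 CD3 genes, 10 of the 55450 genes in both matrices. They were chosen by symbol and fall into 3 groups: the alpha-beta constant genes Trac, Trbc1 and Trbc2, the gamma-delta constant genes Trdc, Tcrg-C1, Tcrg-C2 and Tcrg-C4, and the CD3 genes Cd3d, Cd3e and Cd3g. All 10 were found once in each matrix. The data were single-cell RNA counts from liver tumours of C57BL/6 mice, 1 library for each of 2 models of hepatocellular carcinoma. In both models, plasmids were delivered to the liver by a rapid injection of fluid into the tail vein, and a Sleeping Beauty transposase plasmid inserted the oncogenes into the genome of the liver cells that took them up. NRAS.MYC.ND mice received 19 µg of human N-Ras, 1 µg of human c-Myc and 2 µg of transposase plasmid, and AKT1.MYC mice received 10 µg of Akt1, 10 µg of human c-Myc and 5 µg of transposase plasmid. Tumours were taken 14 weeks after injection and dissociated, live cells were enriched, and 3′ droplet libraries were made. The labels call the models F1 and F3 and give neither the meaning of ND nor how many animals were pooled. The oncogenes and the plasmid amounts differ together, so they cannot be told apart, and with 1 library per model no difference below has a replicate check and none was tested.

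A T cell reads antigen through a receptor of 2 chains, either alpha with beta or gamma with delta, each made of a rearranged variable part and a constant part. The chains have almost no cytoplasmic tail of their own, and the CD3 delta, epsilon and gamma chains together with CD247 (CD3 zeta) carry the signalling motifs. The delta locus lies inside the alpha locus, so a rearrangement of alpha deletes delta from that chromosome, whereas gamma genes can be rearranged and transcribed in alpha-beta cells. In liver and tumour tissue, natural killer (NK) cells and other innate lymphoid cells (ILCs) lack a receptor but are known to transcribe some unrearranged constant genes. A constant-gene molecule is therefore not the same as a receptor.

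The constant genes lie in 3 loci of the mouse genome (GRCm38, GENCODE vM21). Trdc at chr14:54142851-54148868 and Trac at chr14:54220521-54224206 are both on the plus strand, 71653 bases apart. Trbc1 at chr6:41538218-41539881 and Trbc2 at chr6:41546730-41548352 are 6849 bases apart on the plus strand. The gamma genes are Tcrg-C1 at chr13:19214103-19217024 on the plus strand, Tcrg-C2 at chr13:19304649-19307551 on the minus strand and Tcrg-C4 at chr13:19344558-19352756 on the plus strand. Both pairs of near-identical paralogs are shown because the assignment of molecules between the 2 copies depends on few bases. Over 518 aligned coding bases, Trbc1 and Trbc2 differed at 23 (95.6% identical), 14 of them in the stretch from coding base 400 to 489 below, where capitals mark the bases that differ.
Trbc1: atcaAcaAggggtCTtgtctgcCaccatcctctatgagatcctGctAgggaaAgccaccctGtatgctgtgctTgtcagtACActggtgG
Trbc2: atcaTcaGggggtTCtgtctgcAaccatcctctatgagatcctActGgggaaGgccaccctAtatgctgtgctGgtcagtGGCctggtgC
Tcrg-C1 and Tcrg-C2 differed at 13 of 500 aligned coding bases (97.4% identical), 5 of them in the stretch from coding base 110 to 199 of each.
Tcrg-C1: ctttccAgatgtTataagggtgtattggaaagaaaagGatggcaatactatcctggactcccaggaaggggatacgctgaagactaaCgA
Tcrg-C2: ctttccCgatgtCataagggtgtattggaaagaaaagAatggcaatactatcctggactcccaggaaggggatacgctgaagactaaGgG
A 3′ library mostly reads the end of the transcript. The bases after the coding part were 65.8% identical between Trbc1 and Trbc2 but 94.4% identical between Tcrg-C1 and Tcrg-C2, so levels of the last pair are uncertain as to which gene of the 2 they belong to. Tcrg-C4 stood further off, with 79.0% of coding bases identical to Tcrg-C2. The sequences are those of the GENCODE vM21 transcripts. Trdc also shares 3437 bases with the antisense gene Gm43434 and 207 bases with Trdv5, both on the opposite strand.

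The CD3 genes form 1 cluster on chromosome 9, with Cd3g at chr9:44969572-44980431 on the minus strand, Cd3d at chr9:44981786-44987339 on the plus strand and Cd3e at chr9:44998740-45009627 on the minus strand. Cd3g and Cd3d are read away from each other from starts 1355 bases apart. Of the 10 genes, these 3 had an entry in the RefSeq promoter table (GRCm38.p6), and the 250 bases before each start are shown because the 3 genes stood high and low together below. Capitals mark matches to the E-box letters CANNTG, searched on both strands.
Cd3g, chr9:44980432-44980681, minus strand: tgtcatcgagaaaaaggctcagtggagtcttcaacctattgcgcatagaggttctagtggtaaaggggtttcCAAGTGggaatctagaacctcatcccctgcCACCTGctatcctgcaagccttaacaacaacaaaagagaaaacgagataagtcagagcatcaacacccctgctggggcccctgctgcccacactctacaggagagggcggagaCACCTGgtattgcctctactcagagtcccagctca
Cd3d, chr9:44981536-44981785, plus strand: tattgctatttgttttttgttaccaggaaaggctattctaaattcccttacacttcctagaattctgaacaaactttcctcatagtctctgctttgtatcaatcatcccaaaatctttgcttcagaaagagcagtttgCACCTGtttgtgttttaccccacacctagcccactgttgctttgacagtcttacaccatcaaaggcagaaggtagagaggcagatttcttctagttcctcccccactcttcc
Cd3e, chr9:45009612-45009861, minus strand: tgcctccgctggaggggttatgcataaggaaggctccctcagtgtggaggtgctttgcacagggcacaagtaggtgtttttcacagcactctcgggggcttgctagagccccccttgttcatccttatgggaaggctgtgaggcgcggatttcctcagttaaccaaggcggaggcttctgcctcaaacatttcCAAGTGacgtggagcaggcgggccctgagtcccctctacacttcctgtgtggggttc
The windows held 3, 1 and 1 matches, and 66.2% of 32851 mouse promoter windows held at least 1. The TATA letters TATAAA were found in none of the 3 windows and in 12.4% of all. Such matches describe letters only.

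After filtering, 5634 NRAS.MYC.ND cells with 38004526 unique molecules (UMIs) and 9398 AKT1.MYC cells with 60289874 UMIs were kept, with medians of 4240 and 1987 UMIs per cell. Cell classes were rebuilt by clustering without the 10 genes and named from markers that did not include them. Of all barcodes, 17 occurred in both libraries, 13 of them among kept cells. The class of T cells, NK cells and ILCs held 1537 cells in NRAS.MYC.ND (27.3%), whereas AKT1.MYC had 139 (1.48%), with nearly the same median depth of 2795 and 2811 UMIs. Different clusters filled the class. In NRAS.MYC.ND, cluster 4 (911 cells, CD8 T cell-like, led by Ccl5, Cxcr6 and Pdcd1), cluster 5 (569 cells, T cell-like, led by Klrb1c, Lef1 and Xcl1) and cluster 19 (56 cells, CD8 T cell-like with histone genes in the lead) held all cells but 1. In AKT1.MYC, 133 of the 139 cells were in cluster 29, NK cell or ILC1-like and led by Gzma, Klra7 and Klre1. Most UMIs of the 10 genes lay in this class. In NRAS.MYC.ND it held 95.2% of their 50889 UMIs and 13.6% of all UMIs of the library, and in AKT1.MYC it held 66.1% of their 1733 UMIs and 0.759% of all UMIs.

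Levels were highest in the T, NK and ILC class for each of the 3 gene groups in both libraries, and all were higher there in NRAS.MYC.ND. Levels are counts per 1000000 UMIs of the summed class (CPM), with exact 95% Poisson intervals that cover counting error only. The summed CD3 genes stood at 4290 CPM (4234 to 4347) in NRAS.MYC.ND and 1067 CPM (974 to 1166) in AKT1.MYC. The summed alpha-beta constant genes stood at 4881 CPM (4821 to 4941) and 1332 CPM (1228 to 1442). The summed gamma-delta constant genes stood at 194 CPM (182 to 206) and 105 CPM (77.4 to 139). The intervals of the 2 libraries do not overlap for any of the 3 sums, whose log2 ratios (AKT1.MYC over NRAS.MYC.ND) were -2.01, -1.87 and -0.88. The sizes depend on the removal of doublets, since without it, on 1679 and 219 cells, the log2 ratios were -3.05, -2.94 and -1.89. With the class taken by a marker gate in place of clusters, the gamma-delta sum was at -1.62.

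In no other class did a sum come near those levels. Among NRAS.MYC.ND classes of 50 cells or more, the CD3 level was next highest in fibroblasts (244 CPM) and erythroid cells (123 CPM), then neutrophils (53.0 CPM), conventional dendritic cells (39.7 CPM), hepatocyte-lineage cells (31.9 CPM), mononuclear phagocytes (29.4 CPM), endothelial cells (26.7 CPM) and B and plasma cells (25.3 CPM). The intervals of neighbours overlap from the neutrophils down, while fibroblasts and erythroid cells stand apart from each other and from the rest. Among named AKT1.MYC classes of 50 cells or more, the order below the lymphocyte class ran from erythroid cells (8.91 CPM, 1 UMI) and neutrophils (8.77 CPM) through fibroblasts (5.65 CPM), endothelial cells (4.02 CPM), phagocytes (2.40 CPM), hepatocyte-lineage cells (1.96 CPM) and conventional dendritic cells (1.42 CPM) to duct-like epithelial cells (1.36 CPM), and all neighbouring intervals overlap.

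**Figure D1:**
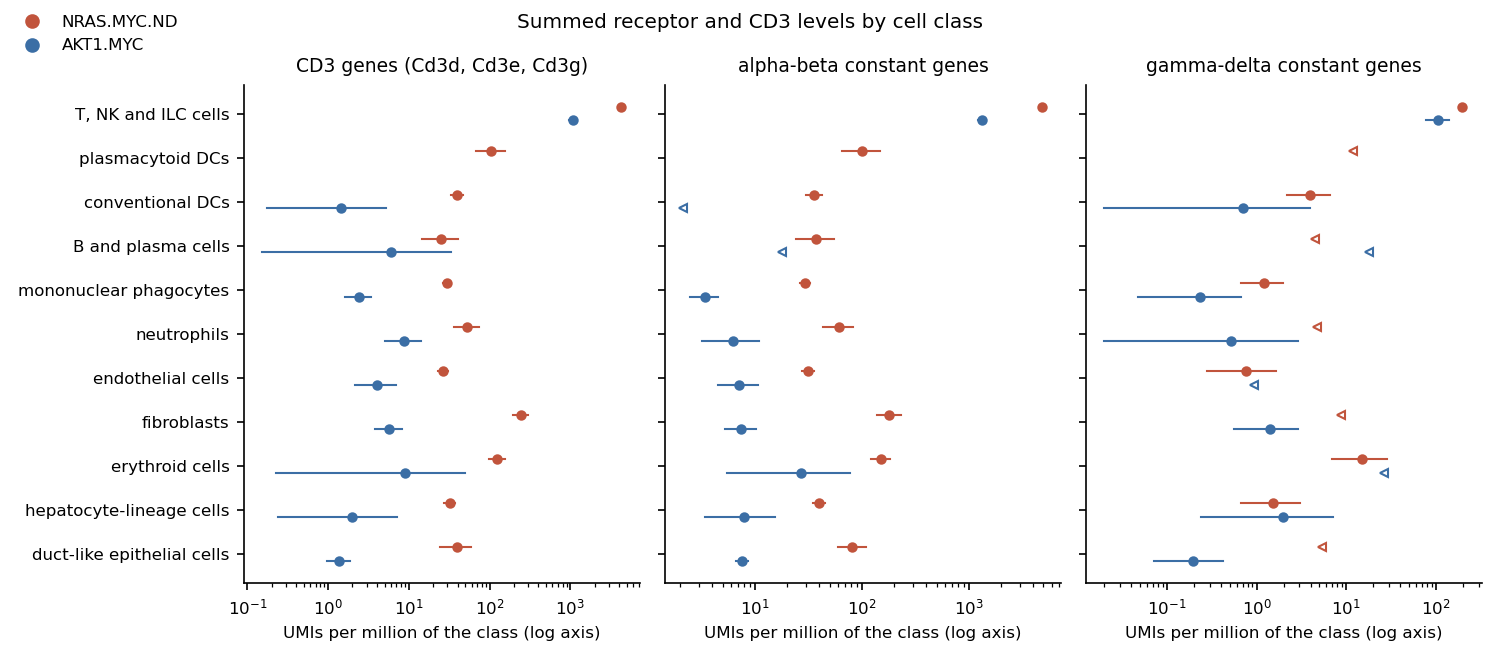
Levels of the 10 genes in each cell class, in CPM on a log axis, with 1 panel per gene group, lines for 95% Poisson intervals and open triangles at the limit of 3 counts where no UMI was seen. In both libraries the T, NK and ILC class lies far to the high side of the other classes, at 4290 and 1067 CPM for the CD3 sum, and classes with under 30 cells in a library are not drawn.

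Member by member, 8 of the 10 genes differed by 2-fold or more in this class, all with the higher level in NRAS.MYC.ND. For 0 genes was AKT1.MYC the higher library by that rule, and Trdc and Tcrg-C1 were under 2-fold. Over all 11352 genes with at least 10 UMIs in all and 1 in each library, 27.0% differed by at least 2-fold in either direction, 13.6% with NRAS.MYC.ND higher and 13.4% with AKT1.MYC higher. The median log2 ratio was -1.79 for the 10 genes and -0.07 for all genes.

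Among the CD3 genes, Cd3e differed most. Cd3e, the epsilon chain that pairs with both other chains, had 9953 UMIs (1925 CPM) in NRAS.MYC.ND and 140 UMIs (306 CPM) in AKT1.MYC, a log2 ratio of -2.65 (-2.90 to -2.41). Cd3g, the gamma chain, had 1443 and 380 CPM (log2 ratio -1.92, -2.15 to -1.71), and Cd3d, the delta chain, 923 and 380 CPM (log2 ratio -1.28, -1.50 to -1.06). The 3 intervals of the log2 ratios do not overlap, so the proportions of the CD3 genes to each other differed between the libraries by more than counting error. CD247, the zeta chain that completes the complex, is not one of the 10 and had 163 and 83.1 CPM (log2 ratio -0.97, -1.48 to -0.50).

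The alpha-beta constant genes were close to each other in their ratios. Trac, the alpha constant gene, had 1123 CPM in NRAS.MYC.ND and 328 CPM in AKT1.MYC (log2 ratio -1.78, -2.02 to -1.54). Trbc1 had 1368 and 389 CPM (-1.81, -2.04 to -1.60), and Trbc2 had 2389 and 614 CPM (-1.96, -2.14 to -1.79). Both are beta constant genes, of which a rearranged locus joins its variable part to 1.

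Among the gamma-delta constant genes, a direction could be given for Tcrg-C2 and Tcrg-C4. Tcrg-C2, with 674 UMIs (130 CPM) and 20 UMIs (43.7 CPM), and Tcrg-C4, with 160 UMIs (30.9 CPM) and 4 UMIs (8.75 CPM), were higher in NRAS.MYC.ND, at log2 ratios of -1.58 (-2.30 to -0.94) and -1.82 (-3.72 to -0.44). Trdc, the only delta constant gene, had 126 UMIs (24.4 CPM) and 18 UMIs (39.4 CPM), a log2 ratio of 0.69 (-0.11 to 1.41). Tcrg-C1 had 42 and 6 UMIs (8.12 and 13.1 CPM), also a log2 ratio of 0.69 (-0.83 to 1.93). Both last intervals include 0, so at this depth no direction can be given for Trdc and Tcrg-C1, and without doublet removal their log2 ratios were -0.45 and -0.28. The further copy Tcrg-C3 had 5 UMIs in NRAS.MYC.ND, while AKT1.MYC had 0.

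**Figure D2:**
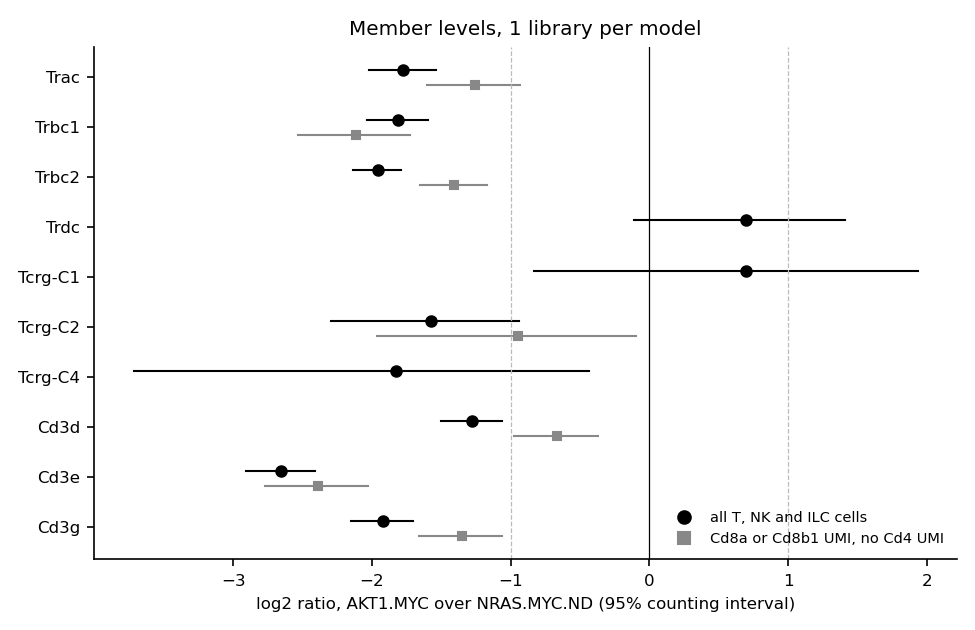
Log2 ratio of CPM, AKT1.MYC over NRAS.MYC.ND, in T, NK and ILC cells for each of the 10 genes, with 95% counting intervals (black, whole class; grey squares, cells with a Cd8a or Cd8b1 UMI and no Cd4 UMI; dashed lines, 2-fold). 8 genes lie at or below -1.28 in the whole class, while Trdc and Tcrg-C1 lie at 0.69 with intervals across 0.

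Markers of the cell types in the class moved with the library. The summed 8 NK cell or ILC1 markers stood at 1182 CPM in NRAS.MYC.ND and 3516 CPM in AKT1.MYC, and the summed 10 T cell markers at 2810 and 1620 CPM, with all markers of both lists seen in both libraries. Macrophage markers inside the class also differed, at 461 and 2263 CPM over 8 of 8 markers. What part the makeup of the class has in the ratios and what part the level per cell cannot be told apart from the class sums. When only cells with a Cd8a or Cd8b1 UMI and no Cd4 UMI were taken, a gate chosen after seeing the data, 1049 and 44 cells remained, with median depths of 3002 and 3075 UMIs. There, the CD3 sum stood at 4792 and 1677 CPM (log2 ratio -1.52, -1.70 to -1.34) and the alpha-beta sum at 5361 and 1844 CPM (-1.54, -1.72 to -1.37). Cd3e was still the CD3 gene with the most negative ratio (2176 and 416 CPM, -2.39), and Cd3d came to 990 and 624 CPM (-0.67, -0.98 to -0.37), so 5 of the 7 genes with enough UMIs in the gate (at least 10, and 1 in each library) were 2-fold higher there in NRAS.MYC.ND. Of all 9115 genes with as many UMIs in the gate, 14.5% were, and 16.8% were 2-fold higher in AKT1.MYC. Trbc1 was at 1541 and 355 CPM (-2.12, -2.53 to -1.73) and Trbc2 at 2601 and 979 CPM (-1.41, -1.66 to -1.17) in the gate, so the ratios of the 2 beta genes parted there.

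Other genes of receptor signalling were read from lists. Of the 20 genes of the TCR signalling list, 9 passed 2-fold with NRAS.MYC.ND higher, 0 with AKT1.MYC higher and 11 were under 2-fold, with a median log2 ratio of -0.94. Fyn, a Src kinase, had the most negative ratio (346 and 74.3 CPM, -2.22), followed by the co-receptor genes Cd8a (430 and 107 CPM) and Cd8b1 (629 and 168 CPM, -1.90). Lck, the kinase that first phosphorylates CD3 (402 and 184 CPM, -1.13), Zap70, the kinase that docks on it (177 and 70.0 CPM, -1.34), and the adaptor Lat (531 and 225 CPM, -1.24) lay nearer the 2-fold line. Ptprc, the CD45 phosphatase of all leukocytes, was the highest of the list on the ratio scale (534 and 619 CPM, 0.21).

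The adaptors that serve NK and myeloid receptors in place of CD3 went the other way. Of the 4 listed, Fcer1g (206 and 1113 CPM, log2 ratio 2.43), Tyrobp, which encodes DAP12 (156 and 853 CPM, 2.45), and the kinase Syk (4.25 and 15.3 CPM, 1.85) were at least 2-fold higher in AKT1.MYC, and Hcst, which encodes DAP10, was not (765 and 702 CPM, -0.12). Phagocytes express the first 3 as well, and macrophage markers were higher in the AKT1.MYC class as given above. The part of these markers in the result was not tested. Of the 12 genes tied to gamma-delta programmes, 6 had the 10 UMIs needed. Maf was higher in NRAS.MYC.ND (378 and 125 CPM, -1.60) and Id3 in AKT1.MYC (24.4 and 78.7 CPM, 1.69, 1.11 to 2.24). Zbtb16, Etv5 and Cd163l1 passed 2-fold on the AKT1.MYC side, on 3 to 5 AKT1.MYC UMIs each. Their intervals include 0 (-0.46 to 4.14, -0.40 to 2.80 and -0.97 to 3.39), so no direction can be given for these 3. Ccr6 was under 2-fold. Il17a had 1 UMI in NRAS.MYC.ND, while AKT1.MYC had 8. None of the 4 recombination and pre-receptor genes could be measured, as Rag1 and Rag2 had 0 UMIs in the class, Dntt had 2 and 1, and Ptcra had 0 and 1.

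Within NRAS.MYC.ND the genes differed among the clusters of the class, which were built without them. CD3 levels were highest in cluster 4 (5559 CPM, 5474 to 5646), lower in cluster 19 (3357 CPM, 3219 to 3499) and lowest in cluster 5 (2416 CPM, 2340 to 2493), and cluster 29 of AKT1.MYC had 945 CPM. Trac had another order, with nearly the same level in clusters 4 and 19 (1295 and 1319 CPM, with intervals that overlap), and 739 and 276 CPM in clusters 5 and 29. The gamma-delta genes split. Tcrg-C2 was highest in cluster 4 (185 CPM) and cluster 19 (119 CPM) against 36.9 CPM in cluster 5 and 37.4 CPM in cluster 29, whereas 125 of the 126 Trdc UMIs of the class lay in cluster 5 (78.1 CPM, 65.0 to 93.0). Trdc had 0 UMIs among the 911 cells of cluster 4, which allows up to 1.04 CPM, and stood at 42.1 CPM in cluster 29. Clusters 5 and 29 were also those with the NK receptor gene Ncr1 (52.5 and 30.4 CPM, against 0 UMIs in cluster 4) and with the higher Fcer1g (422 and 1176 CPM, against 114 CPM in cluster 4).

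Joint detection in single cells was counted after thinning each cell to 1000 UMIs, so that cells were compared at 1 depth. The shares still depend on the depth chosen. This left 1471 cells in the NRAS.MYC.ND class and 125 in that of AKT1.MYC. Intervals are exact Clopper-Pearson 95% intervals for counting error. In NRAS.MYC.ND, 83.7% of cells (81.7% to 85.5%) showed alpha-beta genes only, 11.1% (9.59% to 12.9%) both alpha-beta and gamma-delta genes, 0.952% gamma-delta genes only, and 4.21% neither. In AKT1.MYC the shares were 60.0%, 7.20%, 1.60% and 31.2% in the same order. Cells that showed both kinds were thus more numerous than cells with gamma-delta genes only in both libraries, 164 against 14 and 9 against 2. Most thinned cells of the class had an alpha-beta UMI, however, with a share of 94.8% for NRAS.MYC.ND, while AKT1.MYC had 67.2%. At such shares, most cells with a gamma-delta UMI would show both kinds without any link between the kinds. Whether there is a link was not tested. In phagocytes, which should show neither kind, both were seen in 1 of 1498 NRAS.MYC.ND cells (0.0668%) and gamma-delta genes only in 3 (0.200%), and in AKT1.MYC in 0 and 1 of 2526 cells. Without thinning, where the median depth was 2795 and 2811 UMIs in the lymphocyte class and 6611 and 2680 UMIs in phagocytes, both kinds were seen in 19.6% and 16.5% of the lymphocyte class and gamma-delta genes only in 0.390% and 0.719%.

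A CD3 UMI was seen in 92.3% of thinned NRAS.MYC.ND cells and 52.8% of AKT1.MYC cells, and all 3 CD3 genes in 37.5% and 6.40%. By cluster, CD3 was seen in 99.3% of cells of cluster 4, 96.4% of cluster 19, 80.0% of cluster 5 and 52.1% of cluster 29. In cluster 4, alpha-beta only made up 84.5% and both kinds 14.7%, with 1 of 895 cells showing gamma-delta genes only. In cluster 5, both kinds made up 5.38%, gamma-delta only 2.50% and neither 10.4%. In cluster 29, 32.8% of cells showed neither kind.

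**Figure D3:**
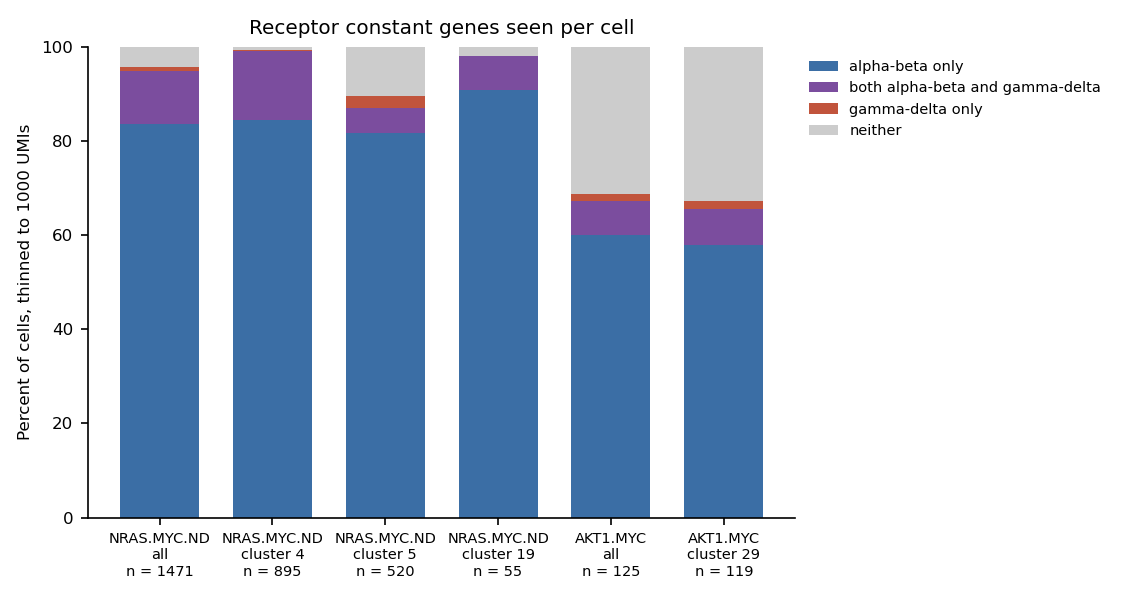
Shares of cells with alpha-beta genes only, gamma-delta genes only, both or neither, after thinning to 1000 UMIs, for the whole T, NK and ILC class of each library and for its clusters. The share with both kinds is 14.7% in cluster 4 and 5.38% in cluster 5, and the share with neither is 32.8% in cluster 29.

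Cells with a Trdc UMI seldom showed Trac. In NRAS.MYC.ND, 0 of 21 thinned cells with a Trdc UMI had a Trac UMI, which allows a share of up to 14.3%, against 901 of 1450 cells without Trdc (62.1%). All 21 lay in cluster 5, where 236 of 499 thinned cells without Trdc (47.3%) had Trac. Without thinning, Trac was seen in 3 of 29 Trdc cells (10.3%) and 1255 of 1508 others (83.2%). The beta genes were seen less often with Trdc but were not missing as Trac was. A Trbc UMI was seen in 11 of 21 thinned Trdc cells (52.4%, 29.8% to 74.3%). It was seen in 1318 of 1450 cells without Trdc (90.9%), and in 410 of 499 such cells of cluster 5 (82.2%). Without thinning, these shares were 24 of 29 Trdc cells (82.8%) and 1444 of 1508 others (95.8%). Trdc cells more often showed a gamma constant gene, 10 of 21 (47.6%) against 157 of 1450 (10.8%), with Tcrg-C1 in 7 of 21 (33.3%) against 6 of 1450 (0.414%), Tcrg-C2 in 23.8% against 8.21% and Tcrg-C4 in 4.76% against 3.10%. Within cluster 5, 20 of 499 thinned cells without Trdc (4.01%) had a gamma constant gene. Without thinning, the order of the 3 genes was another one. Tcrg-C2 was then seen in 15 of 29 Trdc cells (51.7%) against 14.5% of the others, Tcrg-C1 in 8 of 29 (27.6%) against 1.46% and Tcrg-C4 in 8 of 29 against 6.30%. The shares of Tcrg-C1 and Tcrg-C2 hold only as far as the 2 genes can be told apart.

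Cells with Tcrg-C2 or Tcrg-C4 had alpha-beta genes about as often as the whole class, in which 1395 of 1471 thinned NRAS.MYC.ND cells (94.8%, 93.6% to 95.9%) had an alpha-beta UMI. Of 124 thinned NRAS.MYC.ND cells with Tcrg-C2, 97.6% (93.1% to 99.5%) had an alpha-beta UMI, 64.5% had Trac and 4.03% had Trdc. The Trac share among Tcrg-C2 cells thus lay close to the 62.1% of cells without Trdc. Of 46 cells with Tcrg-C4, 91.3% (79.2% to 97.6%) had an alpha-beta UMI and 23 had Trac. In all, 10 of 167 cells with a gamma constant gene had Trdc (5.99%). In AKT1.MYC only 9 cells had Trdc before thinning, all 9 with a Trbc UMI and 2 with Trac.

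Cells with a Trdc UMI differed from the other NRAS.MYC.ND cells of the class in all 3 gene groups. This comparison used all UMIs of 29 cells (28 in cluster 5, median depth 2740 UMIs) and 1508 cells (median 2795 UMIs). The 1508 cells included all 911 cells of cluster 4. Clusters 5 and 4 as a whole had 130 and 588 CPM of Cd8a and 255 and 836 CPM of Cd8b1. They had 964 and 2556 CPM of Cd3e and 422 and 114 CPM of Fcer1g. Levels in Trdc cells were not set against the other cells of cluster 5, so differences between the clusters enter the values below. Trac was at 63.9 CPM with Trdc and 1142 CPM without, Trbc1 at 373 and 1387 CPM, and Trbc2 at 735 and 2420 CPM. The gamma genes were higher with Trdc, with Tcrg-C1 at 181 and 4.92 CPM, Tcrg-C2 at 277 and 128 CPM and Tcrg-C4 at 107 and 29.5 CPM. The CD3 genes were lower, with Cd3e at 639 and 1949 CPM, Cd3g at 576 and 1459 CPM and Cd3d at 480 and 931 CPM. CD8 genes were nearly missing in these cells (Cd8a 32.0 and 437 CPM, Cd8b1 32.0 and 640 CPM), as were Gzmk, a granzyme gene (1 UMI, 10.7 and 500 CPM), Ccl3, a chemokine gene (42.6 and 1459 CPM), and Tox, a factor of chronically stimulated T cells (21.3 and 439 CPM). Lag3, an inhibitory receptor gene, had 0 UMIs with Trdc, which allows up to 32.0 CPM, and 397 CPM without. Higher with Trdc were Plbd1 (171 and 6.30 CPM), the leukotriene-pathway gene Alox5ap (192 and 11.8 CPM), Il1b (128 and 9.65 CPM), Klri2 (117 and 9.45 CPM), Fcer1g (789 and 195 CPM) and the gamma-delta marker Cd163l1 (12 UMIs, 128 CPM, and 0 UMIs). The summed NK cell or ILC1 markers stood at 1513 and 1175 CPM, the macrophage markers at 522 CPM over 7 of 8 markers and 460 CPM over 8 of 8, and their part in these differences was not tested.

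Cells with a gamma constant gene but no Trdc were unlike the Trdc cells. The 279 such cells (216 in cluster 4, 49 in cluster 5, 14 in cluster 19, median depth 3125 UMIs) were set against 1229 cells with neither (median 2711 UMIs). Of the 1229, 1184 had an alpha-beta UMI, 687 of these in cluster 4 and 455 in cluster 5. Lef1 and Tcf7 are among the genes that lead cluster 5, where 28 of the 29 Trdc cells lay. No comparison was made within a cluster, so differences between clusters enter the values below and the contrast with the Trdc cells. Trac was at 1215 and 1123 CPM, Cd3e at 2237 and 1873 CPM, Cd3d at 912 and 936 CPM and Cd8a at 500 and 420 CPM, so none of these 4 genes differed by as much as 2-fold. Trgv2, a gamma variable segment on chromosome 13 at chr13:19336573-19337167 that lies on the strand of Tcrg-C2, had the largest ratio, at 107 and 4.97 CPM (log2 ratio 4.43). It was followed by Gzma, granzyme A (2713 and 394 CPM, 2.79), Slc16a11 (54.1 and 9.69 CPM, 2.48), the NK receptor gene Klrc1 (91.2 and 33.8 CPM, 1.43) and Cd7 (738 and 294 CPM, 1.33). Lower were the platelet factor gene Pf4 (10.4 and 106 CPM, -3.34), Tnfrsf4, which encodes OX40 (12.3 and 98.7 CPM), and the factors of resting and memory T cells Lef1 (21.8 and 74.8 CPM, -1.78) and Tcf7 (22.8 and 76.3 CPM, -1.74).

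Both beta constant genes were often seen in 1 cell. Among thinned NRAS.MYC.ND cells with a Trbc UMI, 43.0% had both (571 of 1329), 46.4% Trbc2 only and 10.7% Trbc1 only. In AKT1.MYC the shares were 9.72% (7 of 72), 51.4% and 38.9%. Among cells with 5 or more Trbc UMIs before thinning, 730 of 1175 NRAS.MYC.ND cells (62.1%) had between 10% and 90% of them from Trbc1, 363 had Trbc2 only and 11 had Trbc1 only. In AKT1.MYC these were 12 of 37 (32.4%), 17 and 8. Over the same cells, Trbc1 gave nearly the same part of the Trbc UMIs, 36.8% and 37.7%. Without thinning, both genes were seen in 59.1% of cells with a Trbc UMI in the NRAS.MYC.ND class and 22.5% in that of AKT1.MYC. In thinned NRAS.MYC.ND phagocytes 32 cells had a Trbc UMI and 0 of them had both genes, which allows a share of up to 9.38%. Phagocytes held only 9.19 CPM of Trbc1 and 14.5 CPM of Trbc2, so a thinned cell could hardly show both. This 0 is therefore no background measure for the shares in the lymphocyte class.

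**Figure D4:**
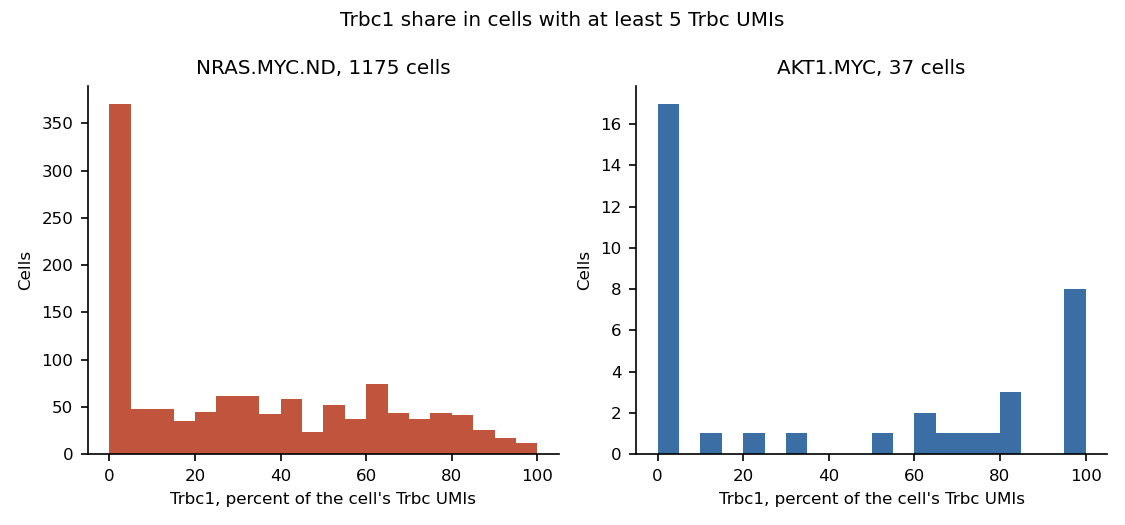
Percent of a cell's Trbc UMIs that came from Trbc1, in T, NK and ILC cells with 5 or more Trbc UMIs (1175 in NRAS.MYC.ND, 37 for AKT1.MYC). In NRAS.MYC.ND 363 cells lie at 0%, 11 at 100% and 730 between 10% and 90%.

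NRAS.MYC.ND cells with Trbc1 only and with Trbc2 only differed in more than these genes. The 65 cells with Trbc1 only (median depth 2058 UMIs) had less Trac (563 and 1117 CPM) and Cd3e (522 and 1923 CPM) than the 536 cells with Trbc2 only (median 2780.5 UMIs). They had more Trdc (142 and 19.7 CPM), Ncr1 (224 and 7.54 CPM, log2 ratio 4.89), Klra4 (197 and 12.2 CPM, 4.01), Klrb1c (251 and 28.4 CPM, 3.14) and Tyrobp (1084 and 139 CPM, 2.97), all but Trdc being genes of NK receptors or their adaptor. The summed 8 NK cell or ILC1 markers stood at 1965 and 1434 CPM and the macrophage markers at 542 and 474 CPM. Lag3 (47.4 and 328 CPM, -2.79), Cd8b1 (129 and 589 CPM, -2.19) and Gzmk (115 and 473 CPM, -2.04) were lower in cells with Trbc1 only. The cells were not thinned, and Trbc1 stood at 1247 CPM in the first set against Trbc2 at 2591 CPM in the second. The part of depth and of the Trbc level in these differences was not tested.

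Outside the lymphocyte class, UMIs of the 10 genes give the background behind the values above. In NRAS.MYC.ND, mononuclear phagocytes, which should lack all 10, held 60.2 CPM in sum, 0.643% of the level in the lymphocyte class, and in AKT1.MYC 6.03 CPM, or 0.241%. After thinning, 95 of 1498 NRAS.MYC.ND phagocytes (6.34%) and 25 of 2526 AKT1.MYC phagocytes (0.990%) had at least 1 UMI of the 10 genes, against 98.3% and 77.6% of the lymphocyte class. Before thinning the phagocyte shares were 32.0% at a median of 6611 UMIs and 2.54% at 2680 UMIs. B and plasma cells of NRAS.MYC.ND had a UMI in 23 of 324 thinned cells (7.10%), never more than 2 in a cell, and 0 of the gamma-delta genes. Gamma-delta genes summed to 1.20 CPM in NRAS.MYC.ND phagocytes, and Trdc had 0 UMIs there.

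A pair of patterns departed from an even low level. In NRAS.MYC.ND fibroblasts and erythroid cells, whose levels were 4.54% and 3.08% of that in the lymphocyte class, 4 of 53 and 7 of 75 cells with 3 or more UMIs of the 10 genes held 91.1% and 89.0% of these UMIs. Other classes showed this less strongly. Such cells held 52.6% in hepatocyte-lineage cells (23 of 376), 47.0% in conventional dendritic cells (11 of 362) and 34.1% in endothelial cells (24 of 853). They held 21.4% in phagocytes, 16.4% in neutrophils and 0% in B and plasma cells. In AKT1.MYC, 1 of 461 endothelial cells and 5 of 869 fibroblasts each held 47.2% of the UMIs of their class. Phagocytes with 3 or more such UMIs, 24 of 1600, had a median depth of 14360 UMIs against 6611 in all phagocytes. In AKT1.MYC, 48.6% of the 578 Trbc2 UMIs of the library (44.5% to 52.8%) lay in the lymphocyte class. This share was lower than that of Cd3d (68.5%, 62.4% to 74.2%), Trbc1 (74.5%), Trac (75.8%), Cd3e (78.7%), Tcrg-C2 (80.0%) and Cd3g (81.3%), all with intervals above that of Trbc2. The intervals of Trdc (18 of 32 UMIs, 56.3%), Tcrg-C1 (6 of 9) and Tcrg-C4 (4 of 6) overlap it.

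The proportions of the 10 genes to each other also differed inside and outside the lymphocyte class. In NRAS.MYC.ND, Trbc2 made up 25.5% of the UMIs of the 10 genes on both sides, but the intervals of the 3 CD3 genes do not overlap. Cd3g made up 15.4% inside (15.1% to 15.7%) and 12.5% outside (11.2% to 13.9%), Cd3e 20.6% and 23.3%, and Cd3d 9.85% and 11.4%. In AKT1.MYC Trbc2 made up 24.5% inside, 50.5% (46.4% to 54.6%) outside and 71.5% (201 of 281 UMIs) in duct-like epithelial cells. Most of these came from cluster 22, led by Tff2 and Spink4, with 1163 AKT1.MYC cells and a median of 22246 UMIs, where Trbc2 had 191 UMIs in 145 cells and at most 6 in 1 cell, or 7.04 CPM (6.07 to 8.11). In the same cells Trbc1 had 19 UMIs (0.700 CPM), Cd3d 14, Cd3e 12, Cd3g 11 and Trac 6 (0.221 CPM). No duct-like cell of AKT1.MYC had 3 or more different genes of the 10.

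**Figure D5:**
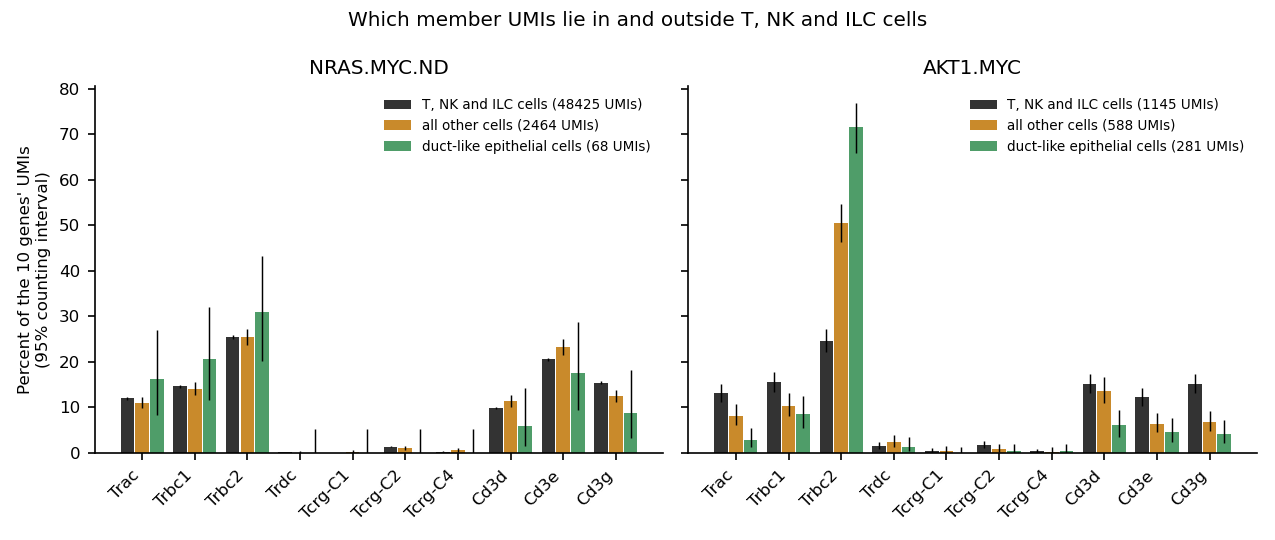
Percent of the UMIs of the 10 genes that came from each gene, in the T, NK and ILC class, in all other cells and in duct-like epithelial cells of each library. In NRAS.MYC.ND Trbc2 is at 25.5% both inside and outside the class and Cd3g at 15.4% and 12.5%, while in AKT1.MYC Trbc2 is at 24.5% in the class and 71.5% in duct-like cells.

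Variable segments, which lie far from the 3′ end, were seen in few cells. In the lymphocyte class of NRAS.MYC.ND, 11.1% of cells had a Trav UMI and 8.26% a Trbv UMI, against 5.04% and 2.88% in AKT1.MYC, and delta segments were seen in 5 and 4 cells. Trgv2 was the exception among gamma segments, with 138 UMIs in 99 NRAS.MYC.ND cells (6.44%) and 8 UMIs in 6 AKT1.MYC cells. All 99 cells had an alpha-beta UMI, 85 had Trac, 77 had Tcrg-C2, 26 had Tcrg-C4, 4 had Tcrg-C1 and 4 had Trdc. Trgv2 lies 29022 bases from Tcrg-C2 and 7391 bases from Tcrg-C4, on the strand of the first and opposite to the other.

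Genes with a pattern like that of the summed CD3 genes over cell classes were ranked by Pearson's r of log2(CPM + 1) over 18 profiles, each a class of 50 cells or more in 1 library, among 14063 genes. The 5 closest were Nkg7, a granule protein gene of cytotoxic lymphocytes (r = 0.987), Lat (0.979), the chemokine receptor gene Cxcr6 (0.970), Cd8a (0.969) and Cd8b1 (0.963). The profiles share 2 libraries and the lymphocyte class lies far above the rest in each, so these values describe a likeness and carry no test.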

How the data were processed

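The deposited counts were whole UMI counts per gene and cell made by the authors with Cell Ranger (6.1.2 per the submitters' processing notes, 6.1.1 per the file headers) against mm10, 1 matrix per model. The 10 genes, lists and comparisons were chosen with earlier results of these data known. Cells with under 500 UMIs, under 250 genes or over 20% mitochondrial UMIs were removed (351 and 456). Scrublet's automatic threshold marked 0 cells in either library, so the top-scoring cells were removed instead, up to the share of doublets expected at this loading, 5.05% and 8.61% (327 and 912 cells). Cells were clustered with Scanpy 1.11.5 (2000 variable genes without the 10 genes and the receptor segments listed, 30 components, 15 neighbours, Leiden resolution 1). Trgv2, whose symbol the segment rule does not cover, stayed among the genes that could be used. Clusters were named from 21 marker lists, and 2 clusters led by mitochondrial or cycling genes with 1540 and 94 AKT1.MYC cells stayed unnamed.

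UMIs were summed per class and library, with exact 95% Poisson intervals for levels, exact conditional binomial intervals for ratios and Clopper-Pearson intervals for shares. A 0 was given the limit of 3 counts. A gene counted as different at 2-fold or more given 10 UMIs or more in the 2 libraries together and 1 in each. No test was run, since each model has 1 library. Named were all 10 genes, list members by their ratios, the 5 genes most like the CD3 sum, and in each gate up to 10 genes a direction with the largest ratios, at least 50 CPM in the higher gate, 30 UMIs and an interval that excludes 2-fold, from which the text takes examples. On simulated counts, 174 genes changed 4-fold had the UMIs needed for a ratio. Of these, 92.5% passed the 2-fold rule, as did 10.6% of unchanged genes. Changed genes without the UMIs needed were left out of this share. The alternatives tried were other filters, no doublet removal, a marker gate for the classes, a finer clustering, another scaling, equal weight for every cell, other depths of thinning and other UMI minimums.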

Additional observations from a re-analysis of the deposited data

How the results depend on the processing

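Of 118 alternative values for the sums, counts and shares, 80 stayed within a set range of the main value and 38 moved past it. This range was the counting error for sums and shares, and a fixed fold range for the count of genes past 2-fold. A sign could be compared for only 30 of the 118, and 0 of these 30 had a sign other than that of the main value. Counts and shares have no direction to change. For single genes, 21 of 98 moved, and 2 had the other sign, Trdc and Tcrg-C1 without doublet removal (-0.45 and -0.28), whose intervals as reported include 0. The largest shifts of the ratios came without doublet removal (1679 and 219 class cells), at log2 -3.05 for CD3, -2.94 for alpha-beta and -1.89 for gamma-delta genes, with gamma-delta only in 0.434% of cells in NRAS.MYC.ND and in 0% for AKT1.MYC. A marker gate (1290 and 69 cells) gave -1.73, -1.57 and -1.62, gamma-delta only in 0.469% and 0%, and a UMI of the 10 genes in 1.91% of AKT1.MYC phagocytes. With equal weight per cell, CD3 was at -1.79 and alpha-beta at -1.71. In the CD8 gate, chosen after seeing the data, these were -1.52 and -1.54, with 5 genes past 2-fold, gamma-delta only in 0.290% and 0%, and both Trbc genes in 47.8% of NRAS.MYC.ND cells with either.

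Depth set the shares of joint detection. In NRAS.MYC.ND, thinning to 2000 UMIs and no thinning gave both kinds in 17.5% and 19.6%, gamma-delta only in 0.398% and 0.390%, both Trbc genes in 55.4% and 59.1% and the phagocyte share at 9.65% and 32.0%. In AKT1.MYC they gave both kinds in 15.5% and 16.5% and both Trbc genes in 19.7% and 22.5%, and no thinning gave 2.54% of phagocytes. When 2 UMIs were needed, both kinds fell to 3.40% and 0.800%, both Trbc genes to 26.7% and 2.94%, and phagocytes to 0.267% and 0.0396%. Median-of-ratios scaling moved the ratios by -0.03. The cause of these shifts was not tested beyond the depth or cells each alternative sets. No paired analysis was possible because each model has 1 library. Ratios of Trdc, Tcrg-C1 and Tcrg-C4 in AKT1.MYC rest on 4 to 18 UMIs.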
